A study of Rattus norvegicus with 9 samples.

Results

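The 10 genes of extracellular matrix turnover followed in rat heart RNA were the 4 tissue inhibitors of metalloproteinases (Timp1, Timp2, Timp3 and Timp4), the matrix metalloproteinases Mmp2, Mmp3, Mmp9 and Mmp14, and the proteases Adamts1 and Adamts2. They were chosen by name, as the rows of the deposited table with these 10 symbols among its 22601 genes, and all 10 were found. RNA was sequenced in 9 heart libraries of 48-week-old rats, 3 per group. WKY (Wistar Kyoto) rats have normal blood pressure, and SHR (spontaneously hypertensive rats) develop hypertension. Both groups were given 1 ml of water by mouth for 34 weeks. Treated SHR were SHR given allisartan, which antagonises angiotensin II at its type 1 receptor, in 1 ml of water by mouth for the same 34 weeks. The heart region, the sex of the animals and the number of animals per library were not stated in the sources used here. Strain and hypertension cannot be told apart in a comparison with WKY, and p-values cover only how much these libraries vary, which may be technical variation.

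Matrix metalloproteinases are zinc enzymes that cut collagens and other matrix proteins, and most are secreted as inactive proenzymes. TIMPs bind their active sites and block them. Mmp2 is the gelatinase A gene, and its proenzyme is activated at the cell surface by the membrane protease encoded by Mmp14 together with TIMP2, so that TIMP2 both assists and inhibits. Mmp9 encodes gelatinase B, which neutrophils and macrophages release, and Mmp3 encodes stromelysin 1. Adamts1 encodes a protease of versican and related proteoglycans. The product of Adamts2 removes the amino-terminal propeptide of fibrillar procollagens. In the heart, fibroblasts are a main source of most of these transcripts, and Timp4 is the family member known for high expression in cardiac muscle.

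Because the 4 TIMP genes differed in direction between the groups, the 250 bases before their annotated starts are shown. The sequences are from RefSeq on build GRCr8, which is not the build of the expression table, and each is read 5′ to 3′ on the gene's own strand, which is the minus strand for all 4. They lie at chrX:3771123-3771372 for Timp1, chr10:104089215-104089464 for Timp2, chr7:19459559-19459808 for Timp3 and chr4:149985205-149985454 for Timp4. Capitals mark motif letters, searched on both strands. The AP-1 motif was spelled TGANTCA. An AP-1-like variant, chosen after the sequences were seen, was spelled TGAGTAA. The letters searched for Sp1 were GGGCGG. For a TATA box they were TATAAA.
Timp1: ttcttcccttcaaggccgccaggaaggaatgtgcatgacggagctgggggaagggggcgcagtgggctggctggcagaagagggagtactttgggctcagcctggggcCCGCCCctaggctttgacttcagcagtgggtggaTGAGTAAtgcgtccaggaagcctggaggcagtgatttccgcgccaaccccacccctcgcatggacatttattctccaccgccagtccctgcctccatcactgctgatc
Timp2: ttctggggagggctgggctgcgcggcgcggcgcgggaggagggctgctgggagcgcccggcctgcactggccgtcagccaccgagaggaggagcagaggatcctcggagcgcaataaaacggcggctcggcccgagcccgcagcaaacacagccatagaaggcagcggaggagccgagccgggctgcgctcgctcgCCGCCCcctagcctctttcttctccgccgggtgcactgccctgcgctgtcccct
Timp3: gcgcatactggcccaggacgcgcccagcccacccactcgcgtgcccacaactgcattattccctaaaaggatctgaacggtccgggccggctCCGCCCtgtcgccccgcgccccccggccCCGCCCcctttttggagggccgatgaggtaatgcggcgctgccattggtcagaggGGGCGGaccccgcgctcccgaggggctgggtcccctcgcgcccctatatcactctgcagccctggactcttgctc
Timp4: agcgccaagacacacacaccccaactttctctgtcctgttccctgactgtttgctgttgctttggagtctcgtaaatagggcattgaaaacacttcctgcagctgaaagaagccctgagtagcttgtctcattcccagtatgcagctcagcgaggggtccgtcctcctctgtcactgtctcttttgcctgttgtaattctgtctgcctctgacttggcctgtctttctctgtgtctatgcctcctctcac
In the Timp1 window TGAGTAA was found at position -108 from the start, and GGGCGG 1 time. The Timp2 window held GGGCGG 1 time and the Timp3 window 3 times. The Timp4 window held none of the 4 motifs. None of these 4 windows held the AP-1 motif or the TATA box. Of 33469 windows of the same length, 6.34% held the AP-1 motif, 2.38% the AP-1-like variant, 30.5% the Sp1 motif and 12.9% the TATA box, with no overlap between matches in the 4 windows shown. The G and C content was 61.2% for Timp1, 72.0% for Timp2, 69.6% for Timp3 and 50.8% for Timp4, against a median of 51.2% over all windows. A match is a description of the letters and not a binding site. RefSeq places Timp1, Timp3 and Timp4 each inside the span of a synapsin gene, Syn1, Syn3 and Syn2 respectively. Syn1 and Syn2 are annotated on the opposite strand to their TIMP gene. Syn1 was at 0.0238 to 0.184 FPKM and Syn3 at 0 to 0.220 FPKM in the 9 libraries.

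Levels are given as FPKM (fragments per kilobase of transcript, scaled to the mapped fragments) after 1 rescaling factor per library. Group values are mean ± SD with n = 3. A log2 change is a difference between group means of log2(FPKM + 0.5), a scale that understates changes of low genes, and called genes are those with adjusted p under 0.05 in limma, fitted to 11717 tested genes and adjusted over all of them by Benjamini-Hochberg. Of the 10 genes, 8 passed the filter on low values and were tested, and each of these passed in more than 1 group. By mean over the 9 libraries, the order of levels was Timp3 (68.2), Timp2 (63.2), Mmp2 (31.9), Timp4 (24.9), Adamts1 (21.0), Timp1 (19.2), Mmp14 (8.68), Adamts2 (3.44), Mmp9 (0.147) and Mmp3 (0). Timp3 and Timp2 stood above 93.5% and 93.0% of tested genes, and Adamts2 above 37.7%. This order was not that of every group: Timp1 was above Timp4 in all SHR libraries and below it in all libraries of the other two groups.

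Library totals were 359207 to 388172 FPKM, and 14279 to 14948 genes were above 0 per library. The sequencing depth is unknown. The heart label was checked on 10 ventricular cardiomyocyte markers, all detected in every group, with summed levels of 35326 to 37608 FPKM (WKY), 31055 to 31390 (SHR) and 41441 to 43188 (treated SHR). Summed markers of several other cell types moved with the groups, while the endothelial sum did not. The sum of 10 fibroblast markers was 422 to 454 (WKY), 645 to 693 (SHR) and 432 to 472 (treated SHR), and that of 6 activated fibroblast markers 27.6 to 32.9, 66.5 to 83.9 and 35.9 to 43.4. Most of the fibroblast sum was Dcn, also 1 of the matrix substrates below, at 295 ± 8.39, 366 ± 2.03 and 282 ± 5.20 FPKM. The sum of 10 macrophage markers was 161 to 182 (WKY), 430 to 505 (SHR) and 229 to 281 (treated SHR), and no gene of these 3 lists was at 0 in all libraries of a group. The sum of 6 atrial markers, nearly all of it Nppa and Pam, was 2063 to 2578 (WKY), 3929 to 6743 (SHR) and 614 to 898 (treated SHR), while the atrial light chain gene Myl7 was at 1.43 ± 0.560, 1.74 ± 0.723 and 0.671 ± 0.651. The sum of 8 endothelial markers was 153 to 173, 153 to 165 and 152 to 167. Smooth muscle and pericyte markers summed to 186 to 246, 274 to 290 and 242 to 327, mast cell markers (Mcpt1 at 0 throughout) to 2.60 to 2.84, 3.98 to 4.73 and 3.45 to 3.91, and erythroid markers to 132 to 223, 74.7 to 154 and 245 to 760. The part of these shifts in the results below was not tested, and in bulk tissue fewer cells of a type and less RNA per cell cannot be told apart.

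Setting SHR beside WKY addresses how matrix protease and inhibitor transcripts differ between the hypertensive and the normotensive strain. In SHR, 6 of the 8 tested genes rose (Timp1, Timp2, Timp3, Mmp2, Mmp14 and Adamts2) and 1 fell (Timp4), where 21.9% of all tested genes were called, 11.9% higher and 9.93% lower. That share rests on 2561 called genes, and 1560 were called without SHR replicate 3. The median log2 change of the 8 was 0.75, against 0.01 over all tested genes. The libraries of the groups did not overlap for any of the 8, with 6 higher and 2 lower in SHR. Over all tested genes 40.9% did not overlap, 21.9% higher and 19.0% lower.

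Setting treated SHR beside SHR addresses what changed under allisartan in the hypertensive strain. In treated SHR, 5 of the 8 fell (Timp1, Timp2, Mmp2, Mmp14 and Adamts2) and 1 rose (Timp4), where 33.5% of all tested genes were called, 16.1% higher and 17.4% lower. The median log2 change of the 8 was -0.65, against -0.03 over all tested genes. Groups did not overlap for 6 of the 8, 1 higher and 5 lower, against 46.4% of all tested genes, 21.5% higher and 24.9% lower. Both comparisons use the same 3 SHR libraries, so opposite directions in them are not independent of each other. Against WKY, treated SHR had 2 of the 8 higher (Timp3 and Timp4) and 1 lower (Adamts1), with 24.3% of all tested genes called, 12.9% higher and 11.4% lower. The groups did not overlap for 4 of the 8, 3 higher and 1 lower, against 40.1% of all tested genes, 20.2% higher and 19.9% lower.

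**Figure D1:**
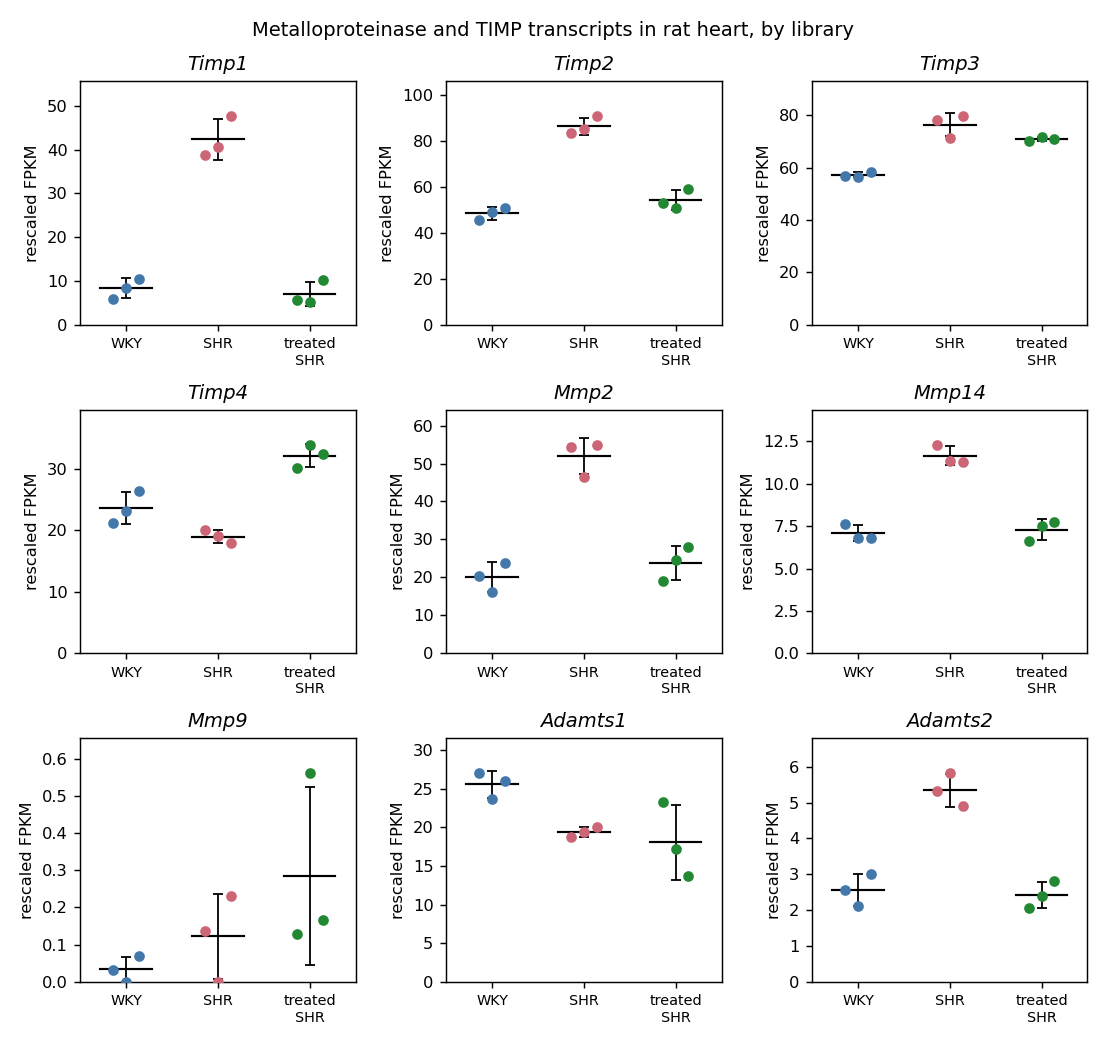
Rescaled FPKM (vertical axes, from 0) of 9 of the genes in each library of WKY, SHR and treated SHR; points are libraries, lines are group means and bars are 1 SD (n = 3). Timp1, Timp2, Mmp2, Mmp14 and Adamts2 are highest in the 3 SHR libraries, Timp4 is highest in the 3 treated SHR libraries, and Mmp3, at 0 throughout, is not drawn.

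Timp1, the family member induced by cytokines and injury in many tissues, had the largest change of the 8 tested genes. It was at 5.95, 8.48 and 10.5 FPKM in WKY, at 38.9, 40.6 and 47.6 in SHR and at 5.76, 5.20 and 10.2 in treated SHR. Every SHR library was far above the other 6, and WKY and treated SHR overlapped. Timp1 rose by 2.31 in SHR (log2, SE 0.238, limma adjusted p = 0.000128), a fold change of 4.96. It fell by 2.56 with treatment (SE 0.238, adjusted p = 5.78e-05), and treated SHR against WKY was at -0.25 (SE 0.238, adjusted p = 0.491). Relative to the fibroblast receptor gene Pdgfra in the same library, a ratio added after the data were seen, Timp1 was at 0.804 to 1.26 (WKY), 4.02 to 5.68 (SHR) and 0.778 to 1.32 (treated SHR). The SHR ratios thus lay above those of both other groups, and Pdgfra itself was at 7.90 ± 0.483, 8.89 ± 0.686 and 6.74 ± 0.962 FPKM.

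Timp2, the inhibitor that also assists in Mmp2 activation, moved the same way over a smaller range. It was at 45.5, 49.2 and 51.0 FPKM in WKY, at 83.6, 85.2 and 90.8 in SHR and at 52.9, 51.1 and 59.3 in treated SHR. The SHR libraries were the highest, and the lowest treated library lay just above the highest WKY library. The gene rose by 0.83 in SHR (log2, SE 0.0768, limma adjusted p = 6.33e-05) and fell by 0.67 with treatment (SE 0.0768, adjusted p = 0.000175). Treated SHR against WKY, at 0.16, was not called (adjusted p = 0.154). Relative to Pdgfra, a ratio added after the data were seen, Timp2 was at 6.10 to 6.20 (WKY), 8.64 to 10.8 (SHR) and 7.65 to 9.11 (treated SHR). On that ratio treated SHR lay above WKY and overlapped SHR.

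Timp3 encodes the TIMP that binds to the matrix and that also inhibits ADAM17 and ADAMTS proteases. It was at 56.9, 56.6 and 58.5 FPKM in WKY, at 78.2, 71.4 and 79.6 in SHR and at 70.1, 71.7 and 71.1 in treated SHR. All SHR and treated libraries lay above WKY, and SHR and treated SHR overlapped. Timp3 rose by 0.41 in SHR (log2, SE 0.0624, limma adjusted p = 0.00127) and was 0.31 higher in treated SHR than in WKY (SE 0.0624, adjusted p = 0.00604). The treated minus SHR difference of -0.10 (SE 0.0624) was not called (adjusted p = 0.225).

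Timp4 had another order, with its lowest levels in SHR and its highest in treated SHR. It was at 21.3, 23.1 and 26.4 FPKM in WKY, at 20.0, 19.1 and 17.9 in SHR and at 30.1, 33.9 and 32.5 in treated SHR. No library of one group overlapped another group. Timp4 rose by 0.75 with treatment (log2, SE 0.0906, limma adjusted p = 0.000233) and was 0.44 higher than in WKY (SE 0.0906, adjusted p = 0.00595). The fall of 0.30 in SHR (SE 0.0906, adjusted p = 0.0367) is less firm, since its call ended in 8 of 21 alternatives (adjusted p = 0.0217 to 0.126 over all of them). These were no rescaling (0.0756), cyclic loess (0.0555), only the 6 libraries compared (0.0506), a replicate block (0.0526) and the fits without WKY replicate 2 (0.0791) or 3 (0.121) and without SHR replicate 2 (0.0835) or 3 (0.126). Per 1000 FPKM of summed ventricular cardiomyocyte markers, a ratio added after the data were seen, Timp4 was at 0.566 to 0.747 (WKY), 0.573 to 0.637 (SHR) and 0.715 to 0.785 (treated SHR). On that ratio SHR lay within the WKY range, so the separation of SHR from WKY seen in FPKM was absent, and treated SHR was above SHR and overlapped WKY. The 10 markers did not move together, so the ratio may depend on which are summed. Of them, 2 rose and 5 fell in SHR, and 7 rose and 3 fell with treatment. As shares of the 10 markers this is 70% and 100%, against 21.9% and 33.5% of all tested genes. Syn2, the synapsin gene around Timp4, went the other way: it was at 0.717 to 1.00 FPKM (WKY), 2.15 to 3.22 (SHR) and 0.403 to 1.52 (treated SHR). Its log2 changes were 1.18 in SHR and -1.30 with treatment (limma adjusted p = 0.0117 and 0.00479). The library kit keeps strand, but no source used here states how the counting used strand.

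**Figure D2:**
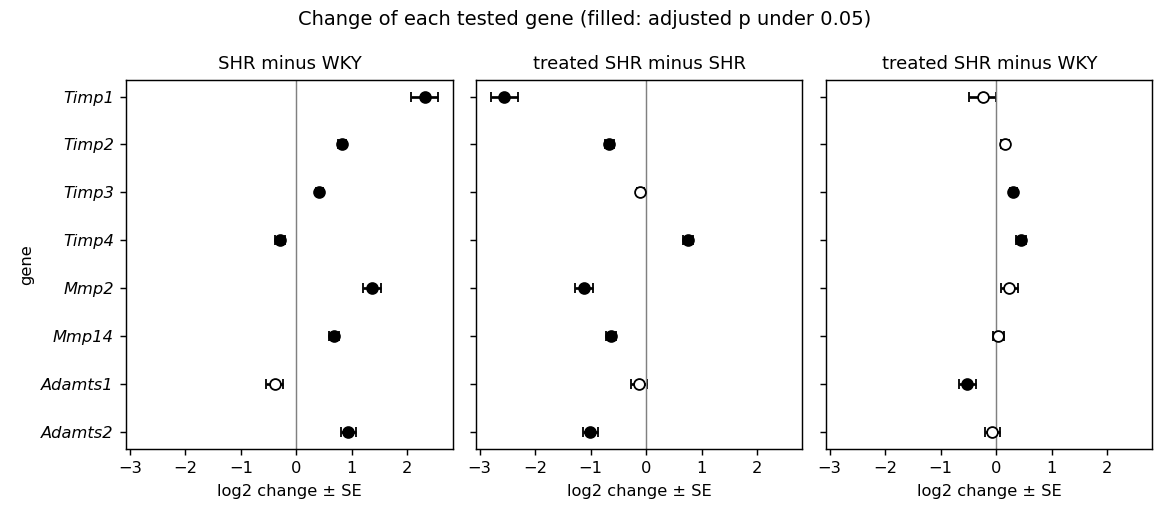
Log2 change (horizontal axes, bars are SE) of the 8 tested genes in the 3 comparisons, filled where the limma adjusted p is under 0.05. Timp1 stands at 2.31 in SHR minus WKY and at -2.56 in treated SHR minus SHR, Timp4 has the opposite sign to Timp1 in each of these panels, and only Timp3, Timp4 and Adamts1 are filled in treated SHR minus WKY.

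The TIMP transcripts together made up 130 to 146 FPKM (WKY), 216 to 236 (SHR) and 159 to 173 (treated SHR). The Timp1 share of this sum was 4.59% to 7.17% (WKY), 17.6% to 20.2% (SHR) and 3.21% to 5.90% (treated SHR). Timp4 was 16.4% to 18.0%, 7.60% to 9.06% and 18.8% to 20.9% in the same order. Timp2 and Timp3 therefore held most of the sum in every library, and the share of Timp1 exceeded that of Timp4 in the SHR libraries and not in the other 6.

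**Figure D3:**
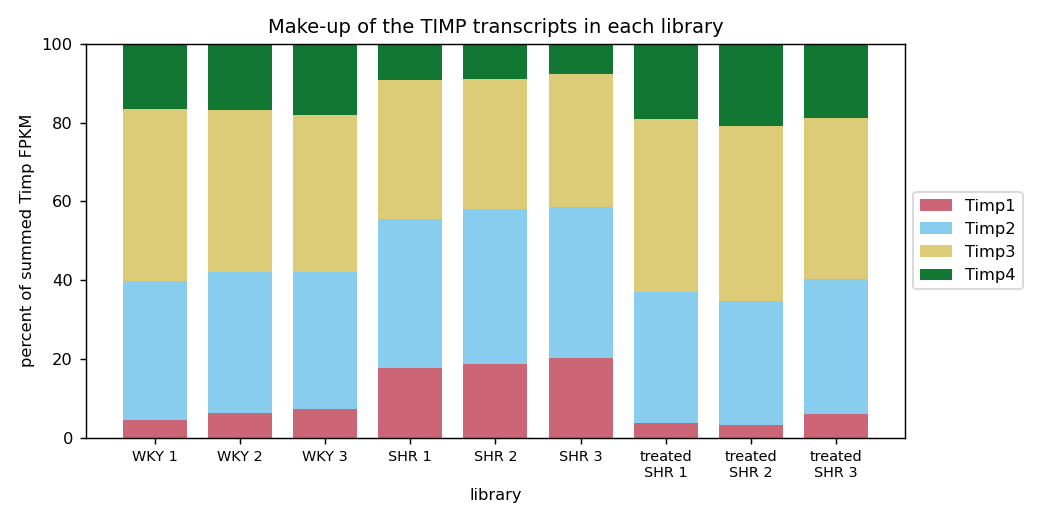
Share of Timp1, Timp2, Timp3 and Timp4 (stacked bars, percent of their summed FPKM) in each of the 9 libraries. The Timp1 share is 17.6% to 20.2% in the SHR libraries and at most 7.17% in the others, and the Timp4 share is lowest in the SHR libraries.

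Mmp2 was the most abundant of the 4 metalloproteinases. It was at 20.5, 16.0 and 23.7 FPKM in WKY, at 54.4, 46.5 and 54.9 in SHR and at 18.9, 24.5 and 27.9 in treated SHR. The SHR libraries were well above the rest, and WKY and treated SHR overlapped. Mmp2 rose by 1.36 in SHR (log2, SE 0.158, limma adjusted p = 0.000253), a fold change of 2.57, and fell by 1.12 with treatment (SE 0.158, adjusted p = 0.000510). Treated SHR against WKY was at 0.24 (SE 0.158, adjusted p = 0.310). The ratio of Mmp2 to Pdgfra was 2.02 to 2.84 (WKY), 5.38 to 6.55 (SHR) and 3.26 to 3.67 (treated SHR), so that on this scale the treated libraries lay between the other groups without overlap.

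Mmp14, which encodes the membrane-type protease that activates pro-MMP2, was at 7.62, 6.78 and 6.83 FPKM in WKY, at 12.3, 11.4 and 11.3 in SHR and at 6.60, 7.53 and 7.77 in treated SHR. Again SHR stood above and the other groups overlapped. Mmp14 rose by 0.68 in SHR (log2, SE 0.0919, limma adjusted p = 0.000624) and fell by 0.64 with treatment (SE 0.0919, adjusted p = 0.000553). Treated SHR against WKY was at 0.04 (SE 0.0919, adjusted p = 0.784).

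Mmp3 and Mmp9 were at the bottom of the measured range and were not tested. Mmp3 was listed at 0 in all 9 libraries. Mmp9 was at 0.0324, 0 and 0.0680 FPKM in WKY, at 0.136, 0 and 0.229 in SHR and at 0.129, 0.561 and 0.166 in treated SHR. The treated libraries lay above WKY and overlapped SHR, at levels where the unknown depth gives no detection limit. Neutrophil markers, 8 in all, of which Mpo was listed at 0 in every library, Camp in WKY and SHR and Elane in treated SHR, summed to 7.42 to 9.91 FPKM (WKY), 4.22 to 8.35 (SHR) and 16.0 to 25.8 (treated SHR). Most of that sum was S100a8 and S100a9, which rose by 1.63 and 1.32 with treatment (log2, limma adjusted p = 0.000314 and 0.00548). In WKY, SHR and treated SHR, the neutrophil receptor gene Csf3r was at 0.0944 ± 0.0537, 0.0779 ± 0.0487 and 0.219 ± 0.0454, and Cxcr2 at 0.0591 ± 0.102, 0.251 ± 0.0987 and 0.459 ± 0.160. Elane, the neutrophil elastase gene, went the other way, at 0.248 ± 0.117 in WKY, 0.0526 ± 0.0910 in SHR and 0 in treated SHR. The part of these genes in the Mmp9 values was not tested.

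Adamts2, the procollagen N-proteinase gene, was at 2.57, 2.13 and 3.01 FPKM in WKY, at 5.32, 5.82 and 4.89 in SHR and at 2.06, 2.40 and 2.80 in treated SHR. The SHR libraries did not overlap the others. It rose by 0.94 in SHR (log2, SE 0.140, limma adjusted p = 0.00115) and fell by 1.01 with treatment (SE 0.140, adjusted p = 0.000475), while treated SHR against WKY was at -0.07 (adjusted p = 0.756). Its substrate gene Col1a1, the alpha 1 chain of type I collagen, was at 12.5 ± 1.49, 54.6 ± 2.69 and 18.7 ± 5.72 in the 3 groups. The ratio of Adamts2 to Col1a1, added after the data were seen, was 0.194 to 0.225 (WKY), 0.0939 to 0.101 (SHR) and 0.111 to 0.147 (treated SHR), lowest in SHR. Relative to Pdgfra, also added after the data were seen, Adamts2 was at 0.268 to 0.359 (WKY), 0.550 to 0.674 (SHR) and 0.354 to 0.363 (treated SHR). That ratio was highest in SHR, so the direction depends on the gene in the denominator.

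Adamts1 was the exception among the proteases. It was at 27.0, 23.7 and 26.0 FPKM in WKY, at 18.8, 19.4 and 20.1 in SHR and at 23.3, 17.2 and 13.7 in treated SHR. All WKY libraries were above the other 6, and the treated libraries spread around those of SHR. The SHR minus WKY difference of -0.39 (log2, SE 0.150) was not called (limma adjusted p = 0.0898), and was called in 3 of 21 alternatives (0.00892 to 0.211 over all): with only the 6 libraries compared (0.00892), without treated SHR replicate 1 (0.0174) and without treated SHR replicate 3 (0.0296). The fit over 9 libraries shares its spread with treated SHR, where the SD was 4.82 FPKM against 0.643 in SHR. Treated SHR was 0.52 lower than WKY (SE 0.150, adjusted p = 0.0291), and this call ended in 6 of 21 alternatives (0.00205 to 0.0859). They were no filter (0.0578), only the 6 libraries compared (0.0533), and leaving out WKY replicate 1 (0.0859), WKY replicate 3 (0.0746), treated SHR replicate 2 (0.0774) or treated SHR replicate 3 (0.0731). Treated SHR minus SHR was at -0.13 (SE 0.150, adjusted p = 0.529). It was called without treated SHR replicate 1, at -0.33 (adjusted p = 0.0461), and was at 0.04 without treated SHR replicate 3 (0.811).

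Ratios between 2 transcripts of the same library do not depend on the scaling of that library, and are given without a test. Timp1 over Timp2 was 0.131 to 0.206 (WKY), 0.465 to 0.524 (SHR) and 0.102 to 0.172 (treated SHR). Timp1 over Timp4 was 0.279 to 0.398, 1.94 to 2.65 and 0.153 to 0.314. Both ratios were highest in SHR with no overlap. Mmp2 over Timp2 was 0.326 to 0.465 (WKY), 0.545 to 0.650 (SHR) and 0.358 to 0.479 (treated SHR), again highest in SHR. Mmp2 over Timp1 went the other way, with 1.89 to 3.45, 1.15 to 1.40 and 2.73 to 4.71. Mmp14 over Timp2, the pair that acts together on pro-MMP2, was 0.134 to 0.168, 0.124 to 0.147 and 0.125 to 0.147, and all groups overlapped. The 4 metalloproteinases summed to 22.8 to 30.6 FPKM (WKY), 57.8 to 66.8 (SHR) and 25.7 to 35.8 (treated SHR). Divided by the summed TIMP transcripts, this gave 0.166 to 0.217, 0.267 to 0.303 and 0.161 to 0.207, with SHR above both other groups. The summed ratio covers these 4 genes only and is mostly that of Mmp2. It leaves out Mmp15, at 18.4 ± 0.746 (WKY), 14.2 ± 0.400 (SHR) and 15.1 ± 0.716 FPKM (treated SHR). The order of the groups may therefore depend on which metalloproteinases are summed. These are ratios of transcripts, and no enzyme or inhibitor protein was measured in these files.

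**Figure D4:**
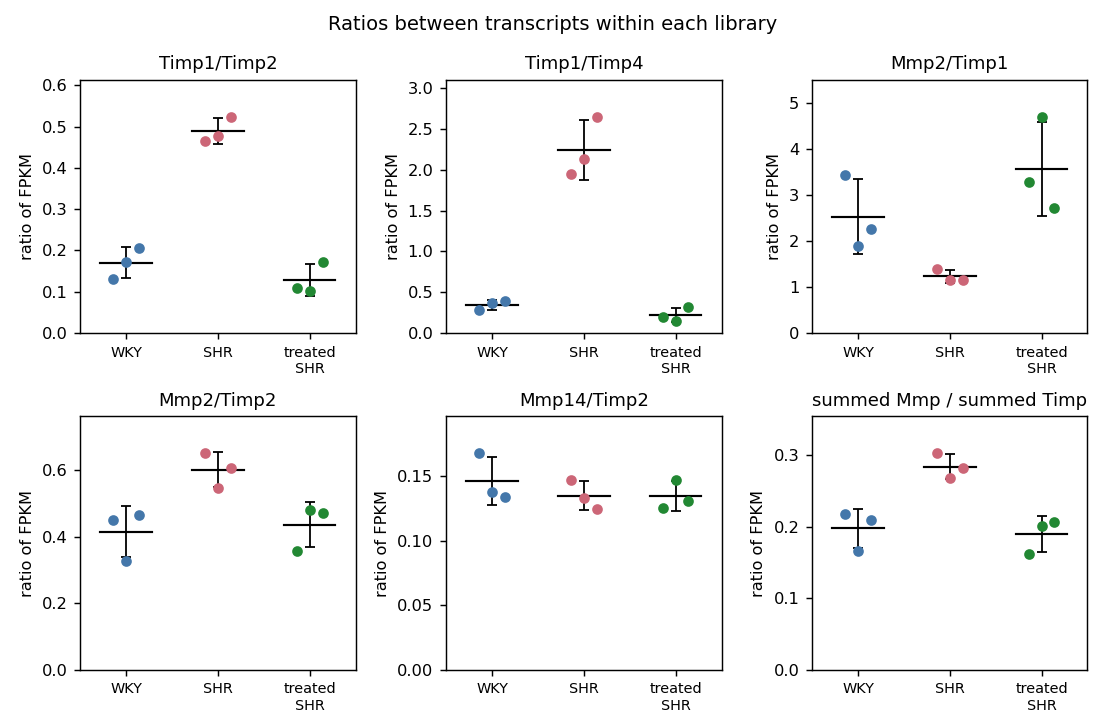
Ratios of FPKM between transcripts of the same library (vertical axes, from 0) in WKY, SHR and treated SHR; points are libraries, lines are means and bars are 1 SD (n = 3). Timp1/Timp2, Timp1/Timp4, Mmp2/Timp2 and the summed ratio are highest in SHR, Mmp2/Timp1 is lowest in SHR, and Mmp14/Timp2 overlaps in all groups (0.124 to 0.168).

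Among 18 other matrix metalloproteinase genes, 6 were tested. Mmp12 passed the filter on low values only through SHR, so its difference was built into its selection. Of the other 5, 2 rose and 1 fell in SHR (median log2 change 0.26), or 60.0% against 21.9% of all tested genes. Mmp12, the macrophage elastase gene, was at 0.0783 ± 0.0975 FPKM in WKY, 0.731 ± 0.129 in SHR and 0.217 ± 0.141 in treated SHR. Mmp23 was at 0.795 ± 0.198, 1.64 ± 0.508 and 0.741 ± 0.232 (limma adjusted p = 0.0382 and 0.0184), and these calls ended in 8 and 3 of 21 alternatives (0.0214 to 0.121 and 0.0101 to 0.0667), among them the fits without SHR replicate 1 (0.121 and 0.0667) and without SHR replicate 2 (0.106 and 0.0588). Mmp19 rose by 0.63 in SHR (adjusted p = 0.0192), a call that ended without WKY replicate 2 (0.0684) and without SHR replicate 3 (0.0679). Mmp15, a membrane-type metalloproteinase gene and at 18.4 ± 0.746 FPKM in WKY the most abundant of these 6, fell by 0.37 in SHR and was 0.28 lower in treated SHR than in WKY (adjusted p = 0.00535 and 0.0193). The second call ended without WKY replicate 2 (0.0675) or 3 (0.0599) and without treated SHR replicate 2 (0.0644) or 3 (0.0534). In treated SHR against SHR, 0 of these 5 rose and 1 fell, Mmp23 (median -0.32), or 20.0% against 33.5% of all tested genes.

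Of 23 other ADAMTS and ADAMTS-like genes, 16 were tested. Adamts4 and Adamts8 passed the filter only through SHR, so that their differences were built into their selection. Of the other 14, 3 rose and 1 fell in SHR (median log2 change 0.07), and 2 rose and 6 fell with treatment (median -0.34). The SHR share, 28.6%, is near the 21.9% of all tested genes. With treatment it was 57.1% against 33.5%. Adamts4, an aggrecanase that also cuts versican, was at 0.265 ± 0.0421, 0.881 ± 0.0672 and 0.280 ± 0.110 FPKM. Adamtsl2, whose product binds latent TGF-beta binding protein 1, was at 0.926 ± 0.312, 2.33 ± 0.158 and 0.884 ± 0.438 (limma adjusted p = 0.00942 and 0.00455). Adamts12 fell by 0.78 in SHR and stayed 0.63 below WKY in treated SHR (adjusted p = 0.000940 and 0.00298), at 4.55 ± 0.360, 2.45 ± 0.292 and 2.76 ± 0.148 in WKY, SHR and treated SHR. Adamts15 was higher than in WKY in both SHR groups, by 0.63 and 0.70 (adjusted p = 0.00840 and 0.00465). Adamts19 was lower in treated SHR than in SHR and WKY, by 0.60 and 0.62 on the log2 scale, at 3.58 ± 0.310 against 5.67 ± 0.585 and 5.77 ± 0.514 FPKM. Adamtsl4 rose by 0.56 with treatment and Adamtsl3 was at -0.81 in treated SHR against WKY (adjusted p = 0.00628 and 0.00247).

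Of 9 ADAM sheddase genes, 6 were tested, with 3 higher and 1 lower in SHR, and 0 higher and 3 lower with treatment. As shares of the 6 this is 66.7% and 50%, against 21.9% and 33.5% of all tested genes. Adam17, the TNF-alpha converting enzyme gene that TIMP3 protein inhibits, was at 8.65 ± 0.265 FPKM in WKY, 11.1 ± 0.0422 in SHR and 7.23 ± 0.646 in treated SHR (log2 0.35 and -0.59, limma adjusted p = 0.0142 and 0.000529). The SHR call ended without WKY replicate 2 (0.0531). Adam9 was at log2 changes of 0.46 and -0.36 (adjusted p = 0.00181 and 0.00450), and Adam15 at -0.68 with treatment (adjusted p = 0.000570). Adam19 and Adam33 were called in SHR at 0.32 and -0.67 (adjusted p = 0.0277 and 0.0295), and each call ended in 4 fits that left out 1 library (0.0913 to 0.0982 and 0.0727 to 0.103).

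Genes that activate, inhibit or clear metalloproteinases numbered 22, of which 18 were tested. In SHR 9 rose and 3 fell (median log2 change 0.46), with treatment 1 rose and 9 fell (median -0.42), and against WKY 2 were higher and 3 lower in treated SHR. These shares are 66.7%, 55.6% and 27.8%, against 21.9%, 33.5% and 24.3% of all tested genes. The last is near the background. Lrp1, the endocytic receptor that clears protease and inhibitor complexes, was at 7.26 ± 1.11 FPKM in WKY, 18.3 ± 0.806 in SHR and 6.36 ± 1.25 in treated SHR (limma adjusted p = 0.000190 and 6.53e-05). Cd44, a hyaluronan receptor that can hold metalloproteinases at the cell surface, was at 1.66 ± 0.200, 4.82 ± 0.868 and 2.28 ± 0.0562. Thbs1, the thrombospondin 1 gene, changed by 1.25 and -1.37 (adjusted p = 0.00104 and 0.000385), and Serpine2, a serine protease inhibitor gene, rose by 1.38 in SHR (adjusted p = 0.000255). Reck, a membrane-anchored inhibitor of metalloproteinases, was at 2.78 ± 0.165, 3.71 ± 0.369 and 2.96 ± 0.430 and was named outside the rule, for its function; it was not called (adjusted p = 0.0609 and 0.0991). Bsg, which encodes the metalloproteinase inducer basigin, rose by 0.69 with treatment and was 0.44 above WKY (adjusted p = 3.99e-05 and 0.000669), at 274 ± 12.8, 230 ± 9.01 and 372 ± 0.687 FPKM.

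Of 14 procollagen processing genes, 13 were in the table and 7 were tested, with 4 higher and 0 lower in SHR and 2 higher and 3 lower with treatment. These are 57.1% and 71.4% of the 7, against 21.9% and 33.5% of all tested genes. Pcolce, the enhancer of the C-proteinase, was at 8.40 ± 1.21, 17.9 ± 1.55 and 10.1 ± 0.603 FPKM (limma adjusted p = 0.000148 and 0.000502). The C-proteinase gene Bmp1 changed by 0.77 and -0.52 (adjusted p = 0.000672 and 0.00384), and Plod2, a collagen lysyl hydroxylase gene, by 1.82 and -1.37 (adjusted p = 0.000346 and 0.00118). Their directions were those of Adamts2, while P4ha1, a prolyl hydroxylase gene, rose by 0.63 with treatment (adjusted p = 0.0129).

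Of 22 genes of matrix substrates, 20 were tested. In SHR 17 rose and 0 fell (median log2 change 0.65), with treatment 0 rose and 18 fell (median -0.77), and against WKY 2 were higher and 2 lower in treated SHR. These shares are 85.0%, 90.0% and 20.0%, against 21.9%, 33.5% and 24.3% of all tested genes. The last is near the background. Bgn, the biglycan gene, was at 36.6 ± 0.931, 160 ± 16.9 and 41.0 ± 10.3 FPKM, and Tnc, the tenascin C gene, at 0.267 ± 0.0650, 2.62 ± 0.196 and 0.524 ± 0.155. Fn1, fibronectin, was 1.93 lower with treatment on the log2 scale and 0.60 below WKY (limma adjusted p = 1.92e-05 and 0.00823). Vcan, the versican gene and a substrate of Adamts1, was at 1.48 ± 0.355, 4.05 ± 0.565 and 1.41 ± 0.196, named outside the rule for that role.

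Inducers of these proteases and transcription factors of the AP-1, ETS and NF-kappaB families numbered 24, of which 20 were tested. In SHR 4 rose and 2 fell, or 30.0% of the 20 against 21.9% of all tested genes. With treatment 0 rose and 6 fell, again 30.0%, against 33.5% of all tested genes, so these shares are near the background. Tgfb2, a transforming growth factor gene, was at 10.3 ± 0.639, 31.0 ± 8.53 and 6.50 ± 0.557 FPKM (limma adjusted p = 0.000128 and 2.16e-05). Tgfb1 was higher than in WKY both in SHR, by 0.60, and in treated SHR, by 0.69 (adjusted p = 0.00239 and 0.00105), and treated SHR minus SHR was at 0.09 (adjusted p = 0.516). Fos, an AP-1 subunit gene, was lower than in WKY both in SHR and in treated SHR, at log2 changes of -1.71 and -1.36 (adjusted p = 0.00190 and 0.00606). Runx1 changed by 1.22 in SHR and -0.91 with treatment (adjusted p = 0.00221 and 0.00681). The connective tissue growth factor gene, listed as Ctgf, was at 192 ± 26.8, 256 ± 45.9 and 52.2 ± 6.76 FPKM, and fell by 2.28 with treatment (adjusted p = 1.91e-05).

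**Figure D5:**
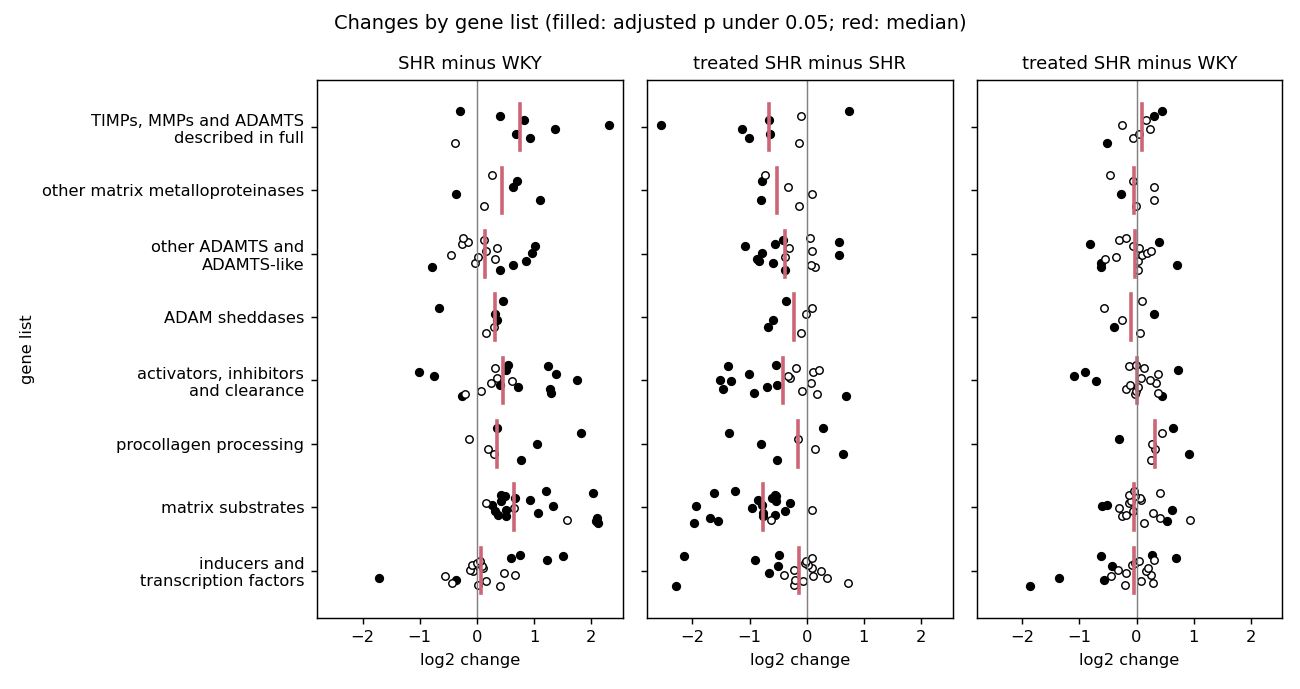
Log2 change (horizontal axes) of each tested gene by gene list (vertical axis) in the 3 comparisons; filled points have a limma adjusted p under 0.05 and red lines are medians. Of the matrix substrates, 17 of 20 are filled to the right in SHR minus WKY and 18 of 20 to the left in treated SHR minus SHR, and most points of treated SHR minus WKY are open.

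The tested genes with profiles nearest to each gene were found by the root mean square difference of log2 values, each gene centred on its mean over the 9 libraries, which share group and preparation. Nearest to Timp1 were Col8a1 (0.152), Loxl1 (0.202) and Ncam1 (0.268). Col8a1 encodes a short-chain collagen and was at 2.76, 15.0 and 2.35 FPKM (means of WKY, SHR and treated SHR), and Loxl1 encodes a lysyl oxidase-like enzyme and was at 4.25, 21.0 and 4.44. Nearest to Mmp2 were Spon1 (0.105), Fstl1 (0.129) and Mxra8 (0.130), and Fstl1, follistatin-like 1, was at 12.9, 32.6 and 14.2 FPKM. Nearest to Adamts2 were Adcy7 (0.0877), Svep1 (0.107) and Axl (0.122). Adcy7 (0.290, 1.08 and 0.334 FPKM) and Svep1 (0.227, 0.763 and 0.173) are low genes. The log2(FPKM + 0.5) scale understates their changes. Their group means were above the 0.5 FPKM of the filter only in SHR, so a profile high in SHR may be built into their selection. Mmp14 had Arpc1b (0.0554), Scara5 (0.0679) and Vim (0.0749), and Vim, the vimentin gene of mesenchymal cells, was at 84.2, 127 and 83.5 FPKM. Timp2 had Selp (0.0676), Abca1 (0.0702) and Slco3a1 (0.0771), and of the 10 genes Mmp14 was the nearest to Timp2 (0.129). Selp is a low gene (0.0935, 0.589 and 0.236 FPKM) whose changes the log2(FPKM + 0.5) scale understates. Its mean was also above 0.5 FPKM only in SHR, so a profile high in SHR may be built into its selection. Timp3 had Ykt6 (0.0538), Shisa5 (0.0547) and Txlna (0.0581), Timp4 had Tnik (0.0574), Usp36 (0.0761) and Med30 (0.0789), and Adamts1 had Rnft1 (0.108), Zswim4 (0.110) and Rbx1 (0.118). The nearest of the 10 genes to Timp4 was Timp3 at 0.383, farther than its 3 nearest genes.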

How the data were processed

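RNA of heart tissue was measured by sequencing in 9 libraries, 3 per group. A mirVana kit was used for extraction and a TruSeq stranded mRNA kit for the libraries, per the labels' protocols. The table deposited by the authors holds FPKM values for each gene in each library. The build Rnor_6.0 and the tools HISAT2, Cufflinks, Trimmomatic, DESeq and HTSeq are named, per the submitters' processing notes. Their versions, their settings and the annotation were not given in the sources used here. Read counts were not used here and depth is unknown. Among genes under 0.1 FPKM in a library and in WKY replicate 1, the modal ratio of both values was 0.886 to 1.21.

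Columns were assigned to groups by the letters that the series' design text gives them. Each library was divided by a median-of-ratios factor (0.965 to 1.04) over the 9194 genes that reached 1 FPKM in every library. Genes at 0.5 FPKM or more in at least 3 libraries were tested, 11717 in all. With a pseudocount of 0.5, limma 3.58.1 in R 4.3.3 fitted 1 mean per group to the 9 libraries, with a mean-variance trend and 6 residual degrees of freedom, giving 3 two-sided contrasts adjusted by Benjamini-Hochberg over all tested genes. The procedure was tested on simulated data, in which 11517 of the 11717 genes had no change in each comparison. Fewer genes were changed there than were called in the data, so recovery in the data may differ. Over the 3 comparisons, 26.9% to 43.3% of log2 changes of 0.5 and 83.6% to 91.0% of changes of 1 were recovered. A small difference that was not called therefore does not show equal levels. Python 3.11.15 with matplotlib 3.10.9 drew the figures. Genes were matched to RefSeq by identifier for names, spans and promoters, the latter for 7 of the 10 genes.

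The 10 genes, the gene lists and the alternatives were chosen with earlier results of these data known. Named genes are the 10 genes, up to 4 called genes with the smallest p per list and comparison, and the 3 nearest profiles of each called gene. A gene that this rule names is not reported here.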

Additional observations from a re-analysis of the deposited data

How the results depend on the processing

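Each comparison was refitted under 21 alternatives: 12 other settings (no rescaling, quantile normalization, cyclic loess, removal of the trend with gene span, pseudocounts of 1 and 0.1, no filter, a stricter filter of 1 FPKM, robust moderation, array weights, only the 6 libraries compared, a replicate block) and leaving out each of the 9 libraries. Of the 10 genes, 6 to 8 were called in SHR against WKY, 6 to 7 in treated SHR against SHR and 2 to 3 in treated SHR against WKY. The calls of Timp1, Timp2, Timp3, Mmp2, Mmp14 and Adamts2 in SHR against WKY, and of Timp1, Timp2, Timp4, Mmp2, Mmp14 and Adamts2 in treated SHR against SHR, held in all of them. The calls of Timp4 in SHR against WKY and of Adamts1 did not, with the values given in the report.

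The count of called genes in SHR against WKY was 2561, and 1560 to 2629 when 1 library was left out. The lowest count was without SHR replicate 3, and its cause was not tested. Each of these fits had 1 library fewer, and the highest of their counts was above that of the full fit. For treated SHR minus SHR the count was 2857 to 3842 against 3924. With the deposited FPKM not rescaled, 64.6% of calls in SHR against WKY were higher, against 54.6%, and 38.1% against 48.1% in treated SHR against SHR. Quantile normalization gave 49.3% and 50.6%. No scaling moved the median of all genes by over 0.1 on the log2 scale.

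Differences near 0 that were not called changed sign when 1 library was left out. Adamts1 in treated SHR against SHR ranged from -0.33 to 0.043, the latter without treated SHR replicate 3. In treated SHR against WKY, Mmp14 ranged from -0.0029 (without treated SHR replicate 3) to 0.11. Adamts2 ranged from -0.18 to 0.032, and was above 0 without WKY replicate 3 (0.032) and without treated SHR replicate 1 (0.022). The cause was not tested.

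Same-numbered libraries did not deviate together (correlations of their deviations -0.0623 to 0.0828). No shared shift by number was seen, but this cannot tell whether same-numbered libraries were handled together. With the replicate block, 6 of the 10 genes were called in SHR against WKY (7 without it), 6 in treated SHR against SHR and 3 in treated SHR against WKY. The block ended the calls of Timp4 in SHR against WKY (-0.30, adjusted p = 0.0526), Mmp23 in SHR against WKY (0.71, 0.0666) and Plod1 in treated SHR against WKY (-0.30, 0.0502), and changed no other call among 99 named results. With the depth unknown, no detection limit can be given for genes at or near 0, such as Mmp3 and Mmp9.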
